A study of Mus musculus with 40 samples.

Results

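The genes described here are 10 markers of astrocytes, *Gfap*, *Aqp4*, *Aldh1l1*, *Slc1a2*, *Slc1a3*, *Gja1*, *Fgfr3*, *S100b*, *Aldoc* and *Glul*, read in cultures of oligodendrocyte precursor cells (OPCs). They were chosen by name as textbook markers, and all 10 were found among the 55536 annotated genes, of which 22028 are protein-coding. For each gene, peaks of H3K4me3 and H3K27me3 were read in its promoters, the windows that reach 2000 bp up from and 1000 bp down from each annotated start in mm10. The 20 ChIP-seq libraries came from OPCs of AMGFAP-Cre;K27M litters (so named in the labels, and hGFAP-Cre in the study's methods) at P5 to P7, with tissue pooled by region and genotype, so that a culture is a pool of mice. K27M cultures carried the H3.3 K27M knock-in allele recombined by Cre from the GFAP promoter, itself a promoter of an astrocyte gene, and control cultures came from the same litters. The study's methods, in a passage on its single-cell data, describe littermate controls as without Cre. OPCs were depleted of endothelial cells and microglia, panned on an antibody to PDGFRa, and kept undifferentiated in proliferation medium with forskolin, CNTF, neurotrophin-3 and PDGF. For either mark there were 2 brainstem cultures of each genotype (numbers 59 and 61) and 3 telencephalon cultures of each (numbers 59, 60 and 61, labelled cortex and dissected as dorsal telencephalon), so that 5 K27M cultures each had a matched control.

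Astrocytes and oligodendrocytes arise from related progenitors, and OPCs share part of the astrocyte gene program. The marker genes fall into structural genes (*Gfap*, the intermediate filament of astrocytes), transporters and channels (*Slc1a2* and *Slc1a3*, the glutamate transporters GLT-1 and GLAST, *Aqp4*, the water channel of astrocyte endfeet, and *Gja1*, the gap junction protein connexin 43), enzymes (*Glul*, glutamine synthetase, *Aldoc*, an aldolase, and *Aldh1l1*, a folate enzyme), a calcium-binding protein (*S100b*) and a receptor kinase (*Fgfr3*). H3K4me3 marks the starts of active or poised genes, H3K27me3 is laid down by Polycomb repressive complex 2, and a promoter with both marks is called bivalent. The K27M change of histone H3.3 is known to lower H3K27me3 in cells that carry it.

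The lists held 20961 to 31200 H3K4me3 peaks and 4739 to 64808 H3K27me3 peaks per library. H3K27me3 peaks covered 26.5 to 152 Mb in the controls and 13.3 to 41.4 Mb in K27M. Telencephalon culture 59 stood apart, with the fewest H3K27me3 peaks of each genotype (12715 in control and 4739 in K27M) and the lowest H3K4me3 enrichment, and the counts of genes with either mark, the telencephalon states and the K27M differences were also computed without it. Of the 10 OPC markers checked (*Pdgfra*, *Cspg4*, *Olig1*, *Olig2*, *Sox10*, *Ptprz1*, *Gpr17*, *Nkx2-2*, *Bcan* and *Lhfpl3*), all 10 had H3K4me3 in all 10 libraries, and *Nkx2-2* alone had H3K27me3 in any control. Of the 7 microglial markers, 6 had no H3K4me3 peak in any library, and of the 7 endothelial markers 4 had none, while 6 of the 10 neuron markers and 3 of the 7 mature oligodendrocyte markers had one in all 10. The lists hold no read counts, and the library depths that the study lists elsewhere were not used here, so no counting error is given, and a missing peak means only that the signal did not pass the caller's threshold. In bulk chromatin, a mark carried by a few astrocytes and a weak mark in all cells cannot be told apart, nor can 2 marks on the same and on different molecules.

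The promoter sequences were read for overlap with the peaks, where 1 bp counted. Each run below holds the 250 bases before and 50 bases from the start of 1 transcript. The starts came from RefSeq, except at *Slc1a2*, on GRCm38 (the same assembly as mm10). The bases are written 5′ to 3′ on the strand of the gene, with CpG dinucleotides in capitals. CpG-rich promoters tend to carry H3K4me3 and Polycomb marks. *Fgfr3* (chr5:33722056-33722355, plus strand) is shown because it carried both marks in most cultures, with 30 CpG. *Gja1* (chr10:56377050-56377349, plus strand), with 8 CpG, is shown because an H3K27me3 peak overlapped this stretch in every control. *Aldh1l1* (chr6:90550543-90550842, plus strand) and *Gfap* (chr11:102897151-102897450, minus strand) had peaks in some cultures only, with 9 and 3 CpG. *Slc1a2* (chr2:102658409-102658708, plus strand) was read by coordinates from the same genome, around a GENCODE start. That start was taken because its promoter block had H3K4me3 in all 10 libraries. These bases had H3K4me3 alone, with 14 CpG. The RefSeq *Slc1a2* entry (chr2:102706188-102706487), not shown, had 1 CpG and a peak of either mark in 0 of 5 control and 0 of 5 K27M libraries.
Fgfr3: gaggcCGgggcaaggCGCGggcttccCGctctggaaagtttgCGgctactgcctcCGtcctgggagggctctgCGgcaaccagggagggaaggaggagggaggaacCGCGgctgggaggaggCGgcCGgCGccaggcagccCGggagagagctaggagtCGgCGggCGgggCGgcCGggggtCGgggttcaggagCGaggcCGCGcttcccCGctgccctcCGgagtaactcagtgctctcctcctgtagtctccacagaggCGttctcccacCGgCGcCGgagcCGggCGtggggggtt
Gja1: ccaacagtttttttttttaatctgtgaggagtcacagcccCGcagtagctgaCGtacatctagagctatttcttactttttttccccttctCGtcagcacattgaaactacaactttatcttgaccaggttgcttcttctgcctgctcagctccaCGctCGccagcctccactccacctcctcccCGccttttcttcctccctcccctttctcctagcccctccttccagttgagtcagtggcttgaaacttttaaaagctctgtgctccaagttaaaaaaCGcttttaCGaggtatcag
Aldh1l1: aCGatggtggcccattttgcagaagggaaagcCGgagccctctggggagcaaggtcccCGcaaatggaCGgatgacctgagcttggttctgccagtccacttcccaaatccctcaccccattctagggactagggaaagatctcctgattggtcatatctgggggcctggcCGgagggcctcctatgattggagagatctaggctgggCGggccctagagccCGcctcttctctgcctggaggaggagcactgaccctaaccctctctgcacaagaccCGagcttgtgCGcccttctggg
Gfap: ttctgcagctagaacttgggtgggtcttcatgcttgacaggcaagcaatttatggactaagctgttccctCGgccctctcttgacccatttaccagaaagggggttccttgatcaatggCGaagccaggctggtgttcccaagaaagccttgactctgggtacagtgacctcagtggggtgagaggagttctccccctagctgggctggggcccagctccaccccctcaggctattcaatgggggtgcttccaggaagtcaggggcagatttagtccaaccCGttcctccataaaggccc
Slc1a2: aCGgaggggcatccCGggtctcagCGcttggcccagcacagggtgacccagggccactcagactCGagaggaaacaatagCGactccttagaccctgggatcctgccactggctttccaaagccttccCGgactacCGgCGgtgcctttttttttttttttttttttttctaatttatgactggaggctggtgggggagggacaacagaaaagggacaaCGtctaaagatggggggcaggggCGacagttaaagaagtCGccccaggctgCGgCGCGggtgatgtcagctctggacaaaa

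Over the 32851 promoters of this length in the RefSeq table, the median was 7 CpG and the quartiles were 3 and 20. Of the 10 genes, 9 were in the table, and *Aqp4* was not. *Fgfr3* had more CpG than 88.3% of all promoters at the start shown and more than 83.1% at its other start, with 26. *Glul* followed with 17 CpG, above 68.6% of promoters. The promoters of *Gfap*, *Slc1a3* and *S100b*, with 3 CpG each, were at the lower quartile, and only 23.3% of promoters had fewer. The same held for 1 of the 2 *Aldoc* entries. The RefSeq *Slc1a2* entry was lower, with 1 CpG, and 5.43% of promoters had fewer. The letters TATAA were found on either strand in the *Slc1a3* promoter alone, against 24.9% of all promoters. The letters TTCNNNGAA, the core that STAT factors are known to bind, were searched for because CNTF in the medium acts through STAT3. They were found on either strand at *Gfap*, *Slc1a3* and 1 of the 2 *Aldoc* entries, against 8.30% of all promoters.

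H3K4me3 was present in every library at 6 of the 10 genes, *Slc1a2*, *Slc1a3*, *Gja1*, *Fgfr3*, *Aldoc* and *Glul*. Over all genes 28.7% had a promoter H3K4me3 peak in all 10 libraries, and over protein-coding genes 57.8%, so 6 of 10 was close to the share of protein-coding genes. The other 4, *Gfap*, *Aldh1l1*, *S100b* and *Aqp4*, had H3K4me3 in some libraries only. Both glutamate transporters and glutamine synthetase were thus among the steadily marked genes, and the astrocyte filament and the water channel among the others. Without telencephalon culture 59 the number was 6 as well.

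**Figure D1:**
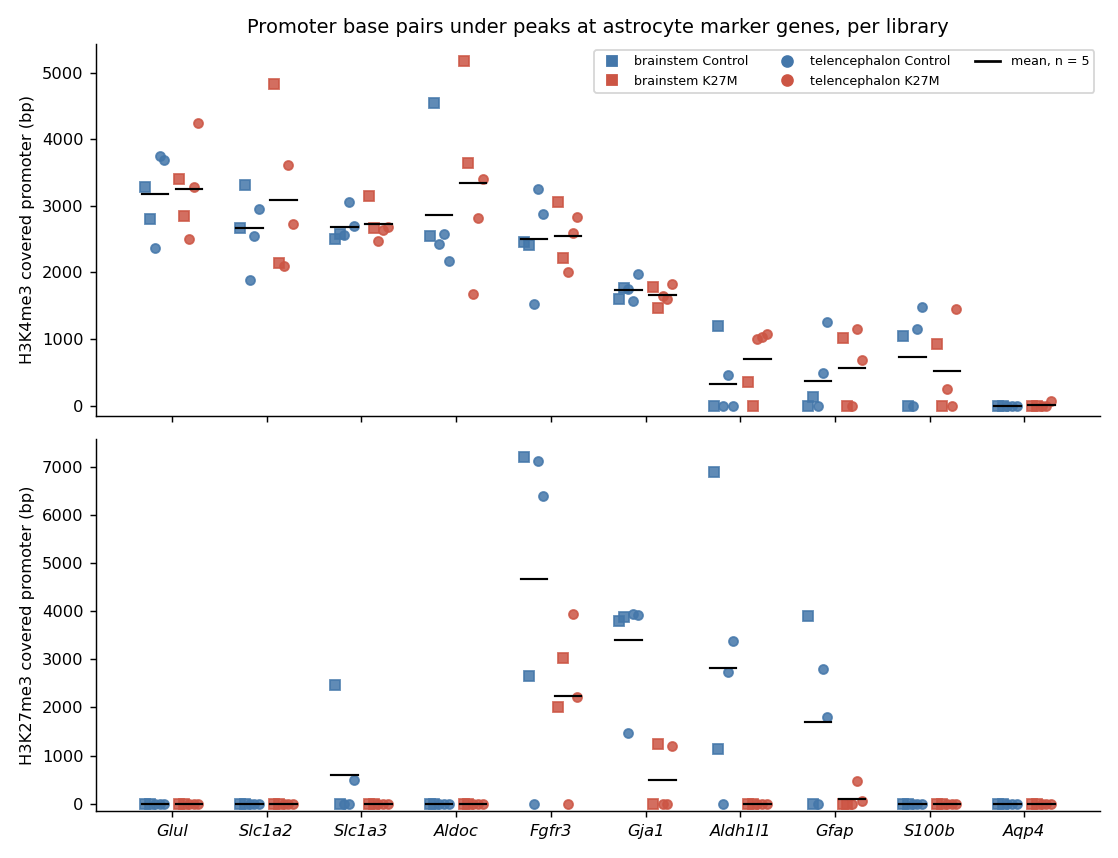
Promoter base pairs under H3K4me3 peaks (top) and H3K27me3 peaks (bottom) at the 10 genes in each library, with squares for brainstem, circles for telencephalon, blue for control, red for K27M and a bar for the mean of the 5 cultures. The 6 genes on the left had H3K4me3 in all 10 libraries, and H3K27me3 was found at 5 genes, with lower means in K27M.

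The glutamate handling genes carried long H3K4me3 peaks. At *Glul* (ENSMUSG00000026473.15, chromosome 1, 153899944 to 153909723, plus strand), peaks covered 3280 and 2804 bp of the promoter in brainstem controls 59 and 61, and 2360, 3752 and 3689 bp in telencephalon controls 59, 60 and 61. In K27M they covered 3403 and 2841 bp in the brainstem and 2508, 3289 and 4248 bp in the telencephalon. Within each library *Glul* ranked high among the genes with a promoter peak, at a median percentile of 91.2 by covered length and 67.2 by fold enrichment. Covered length is summed over all promoters of a gene, 9099 bp at *Glul* against 3000 bp at *S100b* with its 1 start. The rank by length thus also depends on the annotated starts. Its promoters overlap those of *Mir8114* and *Teddm2*, from which the peaks cannot be separated.

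*Slc1a2* (ENSMUSG00000005089.15, chromosome 2, 102658659 to 102790784, plus strand) has 11 annotated starts in 6 separate promoter blocks, and H3K4me3 was tied to the most upstream one. That block, with 5 starts from 102658659 to 102659281, had a peak in all 10 libraries. Its 300 bases printed above were overlapped by a peak in 5 of 5 control and 5 of 5 K27M libraries. A second block at 102675484 had a peak in 6 of 10, and the other 4 blocks in none, the protein-coding starts at 102706356 to 102706438 among them. Over all blocks, peaks covered 2663 and 3306 bp in brainstem controls 59 and 61, 1887, 2554 and 2956 bp in telencephalon controls 59, 60 and 61, 4833 and 2147 bp in brainstem K27M, and 2095, 3612 and 2730 bp in telencephalon K27M. The longest single peak there reached 9070 bp, in brainstem K27M culture 59. No H3K27me3 peak touched an *Slc1a2* promoter in any library, so no promoter of this gene was called bivalent in these cultures.

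*Slc1a3* (ENSMUSG00000005360.14, chromosome 15, 8634124 to 8710764, minus strand) had the narrowest spread of the 3 genes. H3K4me3 covered 2504 and 2575 bp in brainstem controls, 2564, 3054 and 2696 bp in telencephalon controls, 3143 and 2666 bp in brainstem K27M and 2476, 2634 and 2687 bp in telencephalon K27M. The summit of the strongest peak lay 59 to 197 bp downstream of a start in all 10 libraries. This promoter had 3 CpG, so that a peak in every library was also seen at a CpG-poor start. Inside the gene, outside the promoters, H3K4me3 peaks covered a further 1777 to 6351 bp.

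*Aldoc* (ENSMUSG00000017390.15, chromosome 11, 78322968 to 78327781, plus strand) had long but weak H3K4me3 peaks. They covered 2554 and 4546 bp in brainstem controls, 2434, 2578 and 2166 bp in telencephalon controls, 5173 and 3637 bp in brainstem K27M, and 1674, 2817 and 3396 bp in telencephalon K27M. By covered length, out of 5361 bp of promoter, its median percentile among genes with a peak was 82.3. By fold enrichment it was 12.9 (range 9.44 to 23.3). Its highest fold enrichment in any library was 13.4, while that of *Slc1a2* reached 113 in telencephalon control 60. A length over several kilobases at low height was the shape of the mark at this gene.

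*Fgfr3* (ENSMUSG00000054252.18, chromosome 5, 33721674 to 33737068, plus strand) and *Gja1* (ENSMUSG00000050953.10, chromosome 10, 56377330 to 56402513, plus strand) carried H3K4me3 in all 10 libraries as well. At *Fgfr3*, peaks covered 2455 and 2415 bp in brainstem controls, 1524, 3253 and 2873 bp in telencephalon controls, 3065 and 2217 bp in brainstem K27M and 1999, 2592 and 2828 bp in telencephalon K27M. At *Gja1* they covered 1602 and 1764 bp in brainstem controls, 1747, 1563 and 1970 bp in telencephalon controls, 1775 and 1471 bp in brainstem K27M and 1649, 1603 and 1824 bp in telencephalon K27M. These were the only members with H3K4me3 in every library and H3K27me3 in most controls. The first *Fgfr3* block shares its promoters with *G630022F23Rik*. Most *Gja1* H3K4me3 peaks did not reach the 300 bases printed above, which one overlapped in 1 of 5 control and 0 of 5 K27M libraries.

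The 4 genes with H3K4me3 in some libraries only had low enrichment, with no fold above 14.2. At *Gfap* (ENSMUSG00000020932.14, chromosome 11, 102887336 to 102900912, minus strand), H3K4me3 covered 0 and 135 bp in brainstem controls 59 and 61, 0, 484 and 1255 bp in telencephalon controls 59, 60 and 61, 1013 and 0 bp in brainstem K27M and 0, 1157 and 679 bp in telencephalon K27M. The fold enrichment was 2.50 to 6.58, and no peak ranked above the 7.08th percentile of genes with a peak. The summits were not at the start: relative to the nearest start they lay at −876 to −1620 bp, which is upstream, in 5 of 6 libraries and at 1582 bp in brainstem control 61. None of the 10 libraries had an H3K4me3 peak over the *Gfap* bases printed above.

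At *Aldh1l1* (ENSMUSG00000030088.15, chromosome 6, 90486427 to 90600203, plus strand), the only promoter block with H3K4me3 was that of the protein-coding starts from 90550789 to 90550848. It covered 0 and 1189 bp in brainstem controls, 0, 453 and 0 bp in telencephalon controls, 360 and 0 bp in brainstem K27M and 997, 1034 and 1076 bp in telencephalon K27M. The 3 telencephalon K27M cultures were all above the 3 telencephalon controls, and in the brainstem the order of the pairs went both ways. The telencephalon difference was not tested on its own, and the share of all genes that separate this way was not counted. No effect of K27M on H3K4me3 at *Aldh1l1* is read from it. The summits lay 161 to 637 bp downstream of a start.

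*S100b* (ENSMUSG00000033208.7, chromosome 10, 76253853 to 76261159, plus strand) has 1 annotated start. H3K4me3 covered 1041 and 0 bp in brainstem controls, 0, 1146 and 1475 bp in telencephalon controls, 926 and 0 bp in brainstem K27M, and 253, 0 and 1449 bp in telencephalon K27M. The groups overlapped, and no H3K27me3 peak came nearer than 56098 bp. *Aqp4* (ENSMUSG00000024411.10, chromosome 18, 15389496 to 15410982, minus strand) was the least marked gene of the 10. In 1 library, telencephalon K27M 61, an H3K4me3 peak of 283 bp reached 64 bp into a promoter, and the nearest H3K27me3 peak was 84787 bp away.

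**Figure D2:**
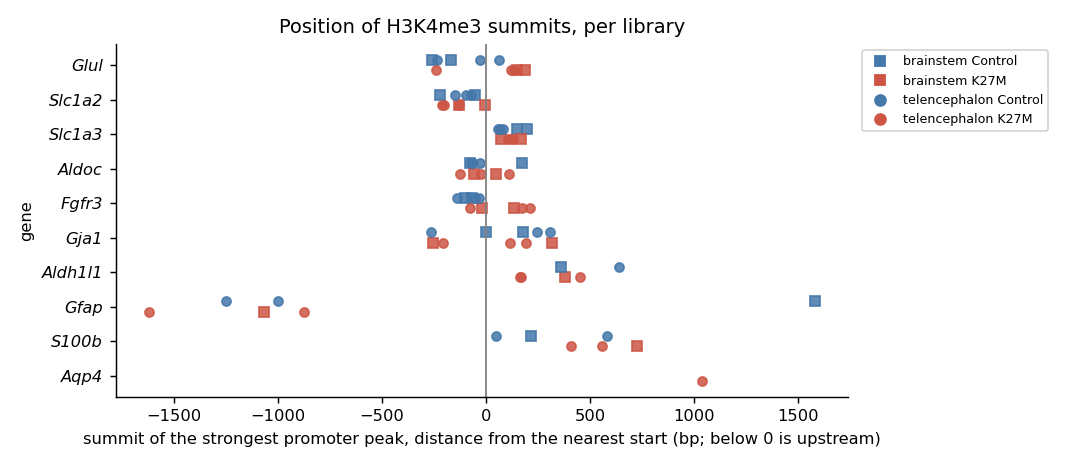
Distance in bp from the summit of the strongest H3K4me3 promoter peak to the nearest annotated start of each gene, 1 point for each library with a peak, with squares for brainstem, circles for telencephalon, blue for control and red for K27M. Summits of the 6 genes with a peak in all 10 libraries lay within 319 bp of a start, while those of *Gfap* lay at −876 to −1620 bp in 5 libraries and at 1582 bp in 1.

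H3K27me3 was found in at least 1 control culture at 5 of the 10 genes, *Gja1*, *Fgfr3*, *Aldh1l1*, *Gfap* and *Slc1a3*, against 36.3% of protein-coding genes. In at least 1 K27M culture it was found at 3, *Gja1*, *Fgfr3* and *Gfap*, against 14.1%. *Slc1a2*, *S100b*, *Aldoc*, *Glul* and *Aqp4* had no H3K27me3 promoter peak in any library. Of the 6 genes with H3K4me3 in all 10 libraries, 3 had no H3K27me3 in any, against 65.9% of the protein-coding genes with that H3K4me3. At *Glul* an H3K27me3 peak came as near as 3444 bp in telencephalon control 60.

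In the controls, the states from consensus peaks (found in at least 2 cultures with a combined p past the stringent threshold, then merged, so that 1 long peak can extend a region into a promoter) set the genes apart. *Slc1a2*, *Slc1a3*, *Aldoc* and *Glul* had H3K4me3 only in both regions. *Gja1* and *Fgfr3* were bivalent in both regions, *Gfap* was unmarked in the brainstem and bivalent in the telencephalon, and *Aldh1l1* had H3K27me3 only in both. *S100b* was unmarked in the brainstem and had H3K4me3 only in the telencephalon, and *Aqp4* was unmarked in both. Bivalent genes thus numbered 2 of 10 in brainstem controls, against 9.28% of protein-coding genes, and 3 of 10 in telencephalon controls, against 14.4%. Without telencephalon culture 60, or without 61, only *Gja1* stayed bivalent there. In telencephalon control 59 *Fgfr3* had no H3K27me3 promoter peak, and neither mark was found at the promoters of *Gfap*. A brainstem consensus needed both cultures and a telencephalon consensus any 2 of 3, and no test of states was made between regions.

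**Figure D3:**
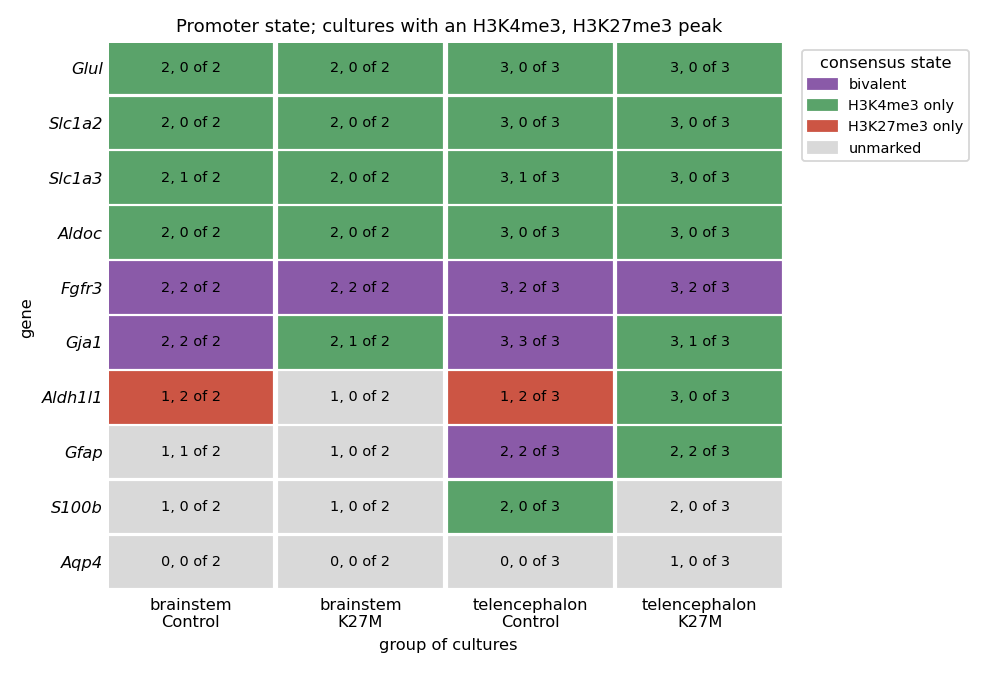
Consensus promoter state (colour) of the 10 genes (vertical axis) in the 4 groups of cultures (horizontal axis), with the number of cultures that had an H3K4me3 peak and then an H3K27me3 peak in each cell. *Slc1a2*, *Slc1a3*, *Aldoc* and *Glul* had H3K4me3 only in all 4 groups, *Fgfr3* was bivalent in all 4, and *Gja1* was bivalent in the controls alone.

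K27M and control cultures were compared within the 5 matched pairs by an exact two-sided sign-flip permutation test on covered promoter length, adjusted over all genes with a promoter peak of the mark. With 5 pairs the smallest p is 0.0625, so no gene could pass 0.05, and the number of pairs in each direction is given instead. At all 5 genes with H3K27me3, the mean covered length was lower in K27M. Of these 5, 4 had a peak in fewer K27M than control cultures, against 77.7% of the protein-coding genes with a peak in any control, and 2 (*Aldh1l1* and *Slc1a3*) had none in K27M, against 61.3%. The first share was near that of all such genes, and the median difference over the 14153 genes tested was also below 0, at −404.8 bp.

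**Figure D4:**
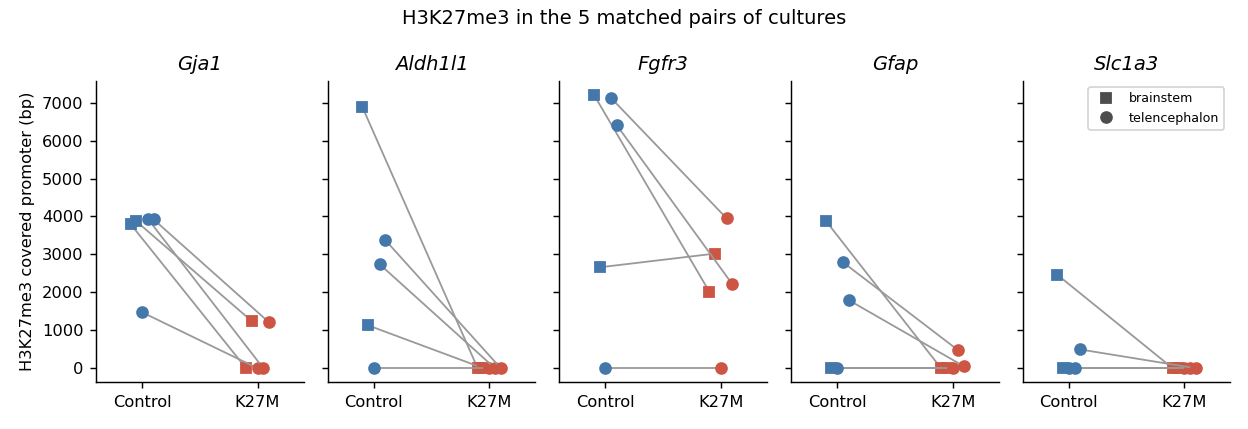
Promoter base pairs under H3K27me3 peaks in control and K27M cultures at the 5 genes with such peaks, with lines that join the matched cultures, squares for brainstem and circles for telencephalon. K27M was lower in 5 of 5 pairs at *Gja1*, 4 at *Aldh1l1*, 3 each at *Fgfr3* and *Gfap* and 2 at *Slc1a3*.

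*Gja1* was the gene with lower H3K27me3 in all 5 pairs. H3K27me3 covered 3801 and 3873 bp of its 4758 bp of promoter in brainstem controls 59 and 61 and 1475, 3936 and 3922 bp in telencephalon controls 59, 60 and 61. In K27M it covered 0 and 1241 bp in the brainstem and 0, 0 and 1208 bp in the telencephalon, so that the lowest control was above the highest K27M culture. Without telencephalon culture 59 the lowest control was 3801 bp. The mean was 3401 bp ± 1078 (SD, n = 5) in control and 489.8 bp ± 670.8 in K27M, a difference of −2912 bp (SD 1003, n = 5 pairs, lower in 5 of 5, exact sign-flip p = 0.0625, Benjamini-Hochberg adjusted p = 0.497). Over all genes tested 10.5% were lower in 5 of 5 pairs. With equal peak numbers, described below, the *Gja1* difference was −1745 bp and no longer in 5 of 5 pairs (exact sign-flip p = 0.25). With labels permuted within each region instead of matched cultures (no replicate block), the exact permutation p was 0.0167, the smallest of its 120 arrangements, and 0.308 adjusted over all genes, of which 6.78% were under 0.05. An H3K27me3 peak overlapped the 300 bases printed above, by at least 1 bp, in 5 of 5 controls and 0 of 5 K27M cultures. H3K4me3 at the same gene differed by −64.8 bp (SD 178, lower in 3 of 5, p = 0.5, adjusted p = 0.903, exact sign-flip), so that its K27M state was H3K4me3 only in both regions.

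At *Aldh1l1* the 2 marks were found in the same culture in 2 of 5 controls. H3K27me3 covered 6892 and 1131 bp in brainstem controls, 0, 2743 and 3378 bp in telencephalon controls and 0 bp in all 5 K27M cultures. The mean difference was −2829 bp (SD 2632, n = 5 pairs, lower in 4 of 5, exact sign-flip p = 0.125, adjusted p = 0.497). These peaks were weak, with a fold of 2.52 to 2.83: the difference was −892.4 bp with a −log10 q of at least 3 and 0 with a fold of at least 3 or equal peak numbers. Without brainstem culture 59 it was −1813 bp. H3K4me3 was found in 2 of 5 controls and 4 of 5 K27M cultures, with a mean difference of 365 bp (SD 917, higher in 4 of 5, exact sign-flip p = 0.438, adjusted p = 0.903). In the controls 2 cultures had both marks, 2 had H3K27me3 alone and 1 had neither, while in K27M 4 had H3K4me3 alone and 1 had neither. The H3K27me3 lay in 4 controls at a non-coding start at 90486427, shared with *Gm45901*, and in 3 controls at the protein-coding starts, where it covered 1937 bp in brainstem control 59 and 1184 and 563 bp in telencephalon controls 60 and 61. Inside the gene it covered a further 3154 to 24709 bp in these 4 controls and 431 bp in 1 K27M culture.

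*Fgfr3* had H3K27me3 in 4 of 5 cultures of each genotype. Peaks covered 7209 and 2660 bp in brainstem controls, 0, 7118 and 6398 bp in telencephalon controls, 2016 and 3022 bp in brainstem K27M and 0, 3949 and 2211 bp in telencephalon K27M. The mean difference was −2437 bp (SD 2498, n = 5 pairs, lower in 3, higher in 1 and 0 in both cultures of telencephalon pair 59, exact sign-flip p = 0.25, adjusted p = 0.581), −1338 bp with a fold of at least 3 and −1467 bp with a −log10 q of at least 3 or equal peak numbers. The CpG-rich first block, with starts from 33721674 to 33723772, had H3K27me3 in 4 of 5 controls and 4 of 5 K27M cultures. The 2 downstream blocks had it in 3 and 2 controls and in no K27M culture, so the K27M peaks were those around the CpG-rich start. At that first block, peaks covered all 5098 bp in 3 controls, 2660 bp in brainstem control 61 and 2016 to 3949 bp in the 4 K27M cultures, so that the groups overlapped. H3K4me3 there differed by 36.2 bp (SD 517, higher in 2 of 5, exact sign-flip p = 1).

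*Gfap* had H3K27me3 over 3893 and 0 bp in brainstem controls 59 and 61, 0, 2795 and 1796 bp in telencephalon controls 59, 60 and 61, 0 bp in both brainstem K27M cultures and 0, 470 and 48 bp in telencephalon K27M. The mean difference was −1593 bp (SD 1653, n = 5 pairs, lower in 3 and 0 in 2, exact sign-flip p = 0.25, adjusted p = 0.581), and −1018 bp without brainstem culture 59. The mark extended over the gene: outside the promoters H3K27me3 covered 1443 to 9466 of 9508 bp in all 5 controls and 1499 to 2121 bp in 3 K27M cultures. The 2 K27M peaks did not pass the consensus rule, and *Gfap* had H3K4me3 only in telencephalon K27M. *Slc1a3* had the least, with 2465 bp in brainstem control 59, 494 bp in telencephalon control 61 and 0 bp in the other 8 libraries (difference −591.8 bp, SD 1069, exact sign-flip p = 0.5, adjusted p = 0.780), and the difference without brainstem culture 59 was −123.5 bp. Both of those controls are among the 3 with the most H3K27me3 peaks. With equal peak numbers, described below, *Slc1a3* had no H3K27me3 promoter peak and the difference was 0. The cause was not tested.

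Pair by pair, the number of genes with a control H3K27me3 peak that also had one in K27M was 1 of 5 and 2 of 3 in brainstem pairs 59 and 61, and 0 of 1, 2 of 4 and 3 of 5 in telencephalon pairs 59, 60 and 61. Over protein-coding genes the shares were 35.0%, 61.8%, 60.5%, 47.2% and 33.9%. No gene of the 10 had a peak in K27M and none in the matched control. Of the 22028 protein-coding genes, 66, 245, 81, 33 and 17 did in the same order of pairs, so such genes were few in general. When every list was reduced to its 4739 peaks with the smallest p, an alternative added after the data were seen, H3K27me3 remained in controls at *Fgfr3*, *Gja1* and *Gfap*, and in K27M at *Fgfr3* alone. At *Gja1* it then remained in the 3 telencephalon controls, over 865, 3936 and 3922 bp, and in neither brainstem control.

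Over both regions together, H3K4me3 in K27M and control cultures overlapped at all 10 genes. None was lower or higher in 5 of 5 pairs, against 5.88% of the 20007 genes tested, and adjusted sign-flip p-values ran from 0.903 to 1. The mean differences ran from −206.8 bp (SD 542.5) at *S100b* to 483.8 bp (SD 1472) at *Aldoc*. Each was smaller than its SD over the 5 pairs. The differences at *Slc1a2* (410.2 bp, SD 1267) and *Aldoc* rested on brainstem pair 59, with 2170 and 2619 bp, whose K27M library had 48.6 Mb under H3K4me3 peaks against 38.7 Mb in its control. Without that pair 7 of the 10 genes had a mean below 0, against 2 with it.

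Telencephalon and brainstem were compared over the 4 pairs with the same culture number and genotype, where the smallest exact sign-flip p is 0.125. *Aldoc* was the only gene of the 10 that lay in one direction in 4 of 4 pairs for H3K4me3, against 2.73% of all genes, with a mean of 2418 bp ± 724 (SD, n = 4) in the telencephalon and 3978 bp ± 1139 in the brainstem. Its difference was −1560 bp (SD 1658, exact sign-flip p = 0.125, adjusted p = 1). By pair it was −120 and −2380 bp in controls 59 and 61 and −3499 and −241 bp in K27M 59 and 61. Over all cultures with no replicate block the difference was −1467 bp (exact permutation p = 0.02, adjusted p = 1), and 2.06% of genes had p under 0.05. No gene of the 5 with H3K27me3 lay in one direction in 4 of 4 pairs, against 1.93% of all genes. In controls 59 the telencephalon minus brainstem difference was below 0 at all 5, from −2326 to −7209 bp, and in controls 61 it was above 0 at all 5, from 49 to 3738 bp. In each of these 2 pairs, the control with more at the genes also had the longer H3K27me3 list, at 102.3 against 26.5 Mb and 152 against 49.3 Mb.

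Further astrocyte genes were read the same way, as 35 effectors and 15 regulators. H3K4me3 was present in all 10 libraries at 24 of the 35 effectors and at all 15 regulators, against 57.8% of protein-coding genes. H3K27me3 was present in at least 1 control at 20 effectors and 10 regulators, against 36.3%, and in at least 1 K27M culture at 11 and 5, against 14.1%. It was found in fewer K27M than control cultures at 14 of those 20 effectors and 8 of those 10 regulators, near the 77.7% of protein-coding genes with a control peak, and in more at none. In brainstem controls 5 effectors and 4 regulators were bivalent, against 9.28% of protein-coding genes, and in telencephalon controls 11 and 6, against 14.4%.

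Among the effectors, *Gjb6*, the gap junction protein connexin 30, and *Gli3*, a transcription factor of the hedgehog pathway that stood on the effector list, were bivalent in all 4 groups, with H3K27me3 in 5 of 5 control and 5 of 5 K27M cultures. *Gjb6* differed in this from its partner *Gja1*, which had it in 5 of 5 and 2 of 5. *Slc7a10*, an amino acid transporter, also had H3K27me3 in 5 of 5 and 5 of 5 and was bivalent in the telencephalon, with H3K27me3 only in the brainstem. *Fam107a* had H3K27me3 in all 10 libraries too. It was bivalent in telencephalon controls and had H3K27me3 only in the other 3 groups.

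*Slc4a4*, a bicarbonate transporter, *Cst3*, cystatin C, and *Ntsr2*, a neurotensin receptor, were bivalent in the controls of both regions and not by consensus in either K27M group. *Slc4a4* still had H3K27me3 peaks in 2 of 2 brainstem and 2 of 3 telencephalon K27M cultures. *Ntsr2* had them in 1 of 2 and 0 of 3, and *Cst3* in 0 of 2 and 0 of 3. In brainstem and telencephalon controls *Cst3* had them in 1 of 2 and 2 of 3, *Slc4a4* in 2 of 2 and 3 of 3 and *Ntsr2* in 2 of 2 and 2 of 3. *Apoe*, the lipid carrier, was bivalent in telencephalon controls and by consensus had H3K27me3 only in brainstem controls. Peaks of either mark were nevertheless found at its promoters in 2 of 2 brainstem controls. *Slc6a11*, a GABA transporter, *Mt2*, a metallothionein, and *Chrdl1*, a BMP antagonist, were bivalent by consensus in telencephalon controls alone. In brainstem controls H3K27me3 peaks were found in 2 of 2 cultures at *Slc6a11*, 1 of 2 at *Mt2* and 0 of 2 at *Chrdl1*. In K27M, *Slc6a11* had them in 1 of 2 brainstem and 2 of 3 telencephalon cultures.

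Among the regulators, the transcription factors *Lhx2* and *Gli2* were bivalent in all 4 groups, with H3K27me3 in all 10 libraries. *Tnc*, the matrix protein tenascin C, went from 5 of 5 controls to 1 of 5 K27M cultures. *Id4* had H3K27me3 in 3 of 5 and 1 of 5, *Egfr* in 3 of 5 and 0 of 5, and *Nfix*, a nuclear factor I gene, in 3 of 5 and 2 of 5. *Nfia*, *Stat3*, *Hes1*, *Hes5* and *Rorb* had H3K4me3 in all 10 libraries and H3K27me3 in none. Of the 10 OPC markers none was bivalent in the controls of either region, whereas 6 and 7 of the 10 neuron markers were, against 9.28% and 14.4% of protein-coding genes. H3K27me3 was present in all 5 K27M cultures at 7 neuron markers, 4 of the 35 effectors and 2 of the 15 regulators. None of the 10 astrocyte markers had it in all 5, which is near the 6.08% of protein-coding genes. In all 5 controls it was present at 7 neuron markers and at 1 astrocyte marker.

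**Figure D5:**
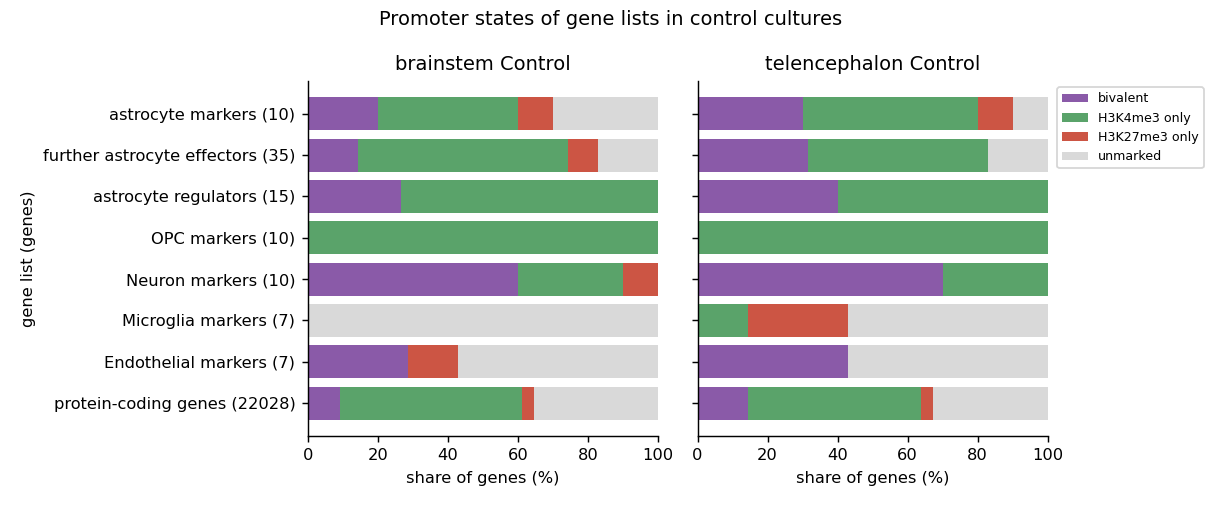
Share of the genes of each list (horizontal axis, %) in each consensus promoter state in brainstem and telencephalon control cultures, with the number of genes of the list in brackets. The 10 astrocyte markers spread over all 4 states in both regions, while all 10 OPC markers had H3K4me3 only in these controls.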

How the data were processed

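Peak lists of 10 control and 10 K27M OPC libraries were used, from ChIP-seq of H3K4me3 and H3K27me3. Inputs were not used here. Groups came from the sample titles.

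Reads were aligned by the authors with BWA (v0.7.17-r1188, mm10). After blacklist filtering, MACS2 (v2.2.7.1) compared every library with its input, without pooling and without the Drosophila spike-in, and gave broad (H3K27me3) or narrow (H3K4me3) peaks. For each peak the deposited lists give the fold enrichment over input, a ratio, and the −log10 of the p-value and q-value. The H3K4me3 lists also give the summit, per the file columns.

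From these lists, the covered base pairs of the union of each gene's promoters (GENCODE M21, GRCm38), the highest fold enrichment and its percentile within the library were computed (Python 3.11.15, numpy 2.4.6, scipy 1.17.1). An overlap of 1 bp counted. Consensus peaks followed the combined-p rule of the study's methods, in at least 2 cultures, with a stringent p-value of 1e-10 (H3K4me3) or 1e-08 (H3K27me3) and a weak one of 1e-06 or 1e-04. The functions were tested on simulated data. The study's methods match the cultures. As a check, deviations of promoter H3K4me3 peaks from the group mean correlated across genes between K27M and control (r = 0.535, 0.187 and 0.319 for telencephalon 59, 60 and 61, 0.000967 for the brainstem), and for H3K27me3 r ran from −0.0816 to 0.160. Between regions, r ran from −0.422 to −0.0756 for H3K4me3 and from −0.0547 to 0.190 for H3K27me3. No source matches cultures across regions, so region pairs share only a number. P-values measure the spread between pooled cultures.

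The genes, the lists of further genes and the alternatives (other overlaps, windows, transcripts, stricter peaks, no matched cultures, each culture left out, and equal peak numbers) were chosen with earlier results of these data known. All 10 genes are named, and of the further lists those bivalent or with H3K27me3 only in controls. A few others were named after their values were seen.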

Additional observations from a re-analysis of the deposited data

Results flagged for a closer look

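Among the 10 genes, the H3K4me3 pairs split by region at *Slc1a3* alone, where peaks covered 2476 to 3143 bp. In both brainstem pairs more of the promoter was covered in K27M than in control, by 639 and 91 bp, with a mean of 365 bp. In all 3 telencephalon pairs less was covered, by −88, −420 and −9 bp, with a mean of −172.3 bp. The difference between the regions was not tested, and the share of all genes that split this way was not counted. No effect of region is read from it. No group had 4 or more cultures, so single libraries were not tested for distance from their group.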

How the results depend on the processing

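The 6 genes with H3K4me3 in every library were the same 6 under every alternative run but 1: with a fold enrichment of at least 3 they were 4, without *Fgfr3* and *Aldoc*. Genes with H3K27me3 in a control numbered 3 instead of 5 with a fold enrichment of at least 3 or with equal peak numbers, and those in K27M 1 instead of 3 (*Fgfr3*) with a −log10 q of at least 3 or with equal peak numbers. The bivalent genes of the telencephalon were 1 (*Gja1*) when a peak was required in every control, and 1 to 3 with each culture left out. The number of genes with a mean difference below 0 was 3 instead of 5 for H3K27me3 in K27M, with a fold enrichment of at least 3 or equal peak numbers, and 3 instead of 5 between regions with that fold. For H3K4me3 in K27M it was 4 instead of 2 by fold percentile and 1 to 7 with each pair left out, 7 without brainstem culture 59 and 1 without telencephalon culture 60. With no replicate block, the number of genes with p under 0.05 was 1 instead of 0 for H3K27me3 in K27M (*Gja1*) and 1 instead of 0 for H3K4me3 between regions (*Aldoc*). The block changed no other call. Of 109 counts under alternatives, 94 stayed within 1.5 times their value. Among them are counts of genes with a sign-flip p under 0.05, which 4 or 5 pairs fix at 0, so these could not change. For H3K27me3 the K27M difference reversed direction in 0 of 55 values, of which 4 became 0 (*Aldh1l1* and *Slc1a3*, each with a fold of at least 3 and with equal peak numbers). At these 2 genes all 5 K27M cultures had 0 bp, so their difference could not reverse. For H3K4me3 the K27M difference reversed in 14 of 100 values, at 8 of 10 genes. Between regions the direction reversed in 1 of 15 values for H3K27me3 and 1 of 30 for H3K4me3. A further 2 of the 100 and 2 of the 15 became 0. With promoters of 1000 bp up and 500 bp down, H3K27me3 differences in K27M were −1013 bp at *Fgfr3*, −1562 bp at *Aldh1l1*, −993.8 bp at *Gfap* and −364 bp at *Slc1a3*, in windows that are shorter by construction. Causes were not tested. Peak lists cannot show H3K27me3 below the threshold, and 4 or 5 pairs cannot reach 0.05.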

Other observations

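Outside the promoters, the bodies of the marker genes differed in which mark they held. *Slc1a2* and *Slc1a3* had H3K4me3 peaks inside the gene in all 10 libraries, over 1031 to 5066 bp and 1777 to 6351 bp. In *Aldh1l1*, H3K4me3 inside the gene covered 866 to 3960 bp in 7 of 10 libraries, among them telencephalon control 61, which had none at the promoters. *Aqp4* had H3K4me3 inside the gene in telencephalon K27M 60 (394 bp) and 61 (219 bp) only, and no H3K27me3 in any library. *Gfap* in brainstem control 59 had H3K27me3 over 99.6% of the gene outside its promoters, with a longest peak of 16314 bp, against 34.0% to 86.1% in the 3 telencephalon controls and 15.2% in brainstem control 61.

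At *Fgfr3* the H3K27me3 enrichment of the strongest peak in K27M was 2.88 and 4.08 in the brainstem and 5.79 and 4.63 in telencephalon cultures 60 and 61, and in the matched controls 4.36, 3.00, 6.43 and 3.98. The covered length was lower in 3 of these 4 pairs, and the enrichment in 2 of 4. Fold enrichment depends on the input and on library quality, and was not tested.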
